A study of Mus musculus with 6 samples.

Results

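The 10 genes described here make up the non-laminin core of the basement membrane: the 6 type IV collagen chains *Col4a1* to *Col4a6*, the nidogens *Nid1* and *Nid2*, perlecan (*Hspg2*), and agrin (*Agrn*). They were chosen by name and matched by Ensembl identifier, which found 10 of 10 among the 55401 genes of the count table. All 10 passed the filter on low counts, 2 or more counts in 5 or more of the 6 libraries, as did 22318 genes in all. Their levels were measured by bulk RNA-seq in Schwann cells (SCs) cultured out of adult mouse dorsal root ganglia, 3 WT cultures and 3 *Plxnb1-/-* cultures, to ask which transcripts depend on Plexin-B1, a receptor for semaphorins. The labels call the controls WT, while the study's methods name heterozygous littermates as controls as well, without saying for which experiments. The mutant allele carries a transmembrane-lacZ-neo gene trap inserted into *Plxnb1* in all cells of the mouse, and the lines were kept on a C57BL/6 background. The mixed ganglion cells of both genotypes were first plated on poly-L-lysine and laminin. Their growth medium held FBS (10%), ascorbic acid, nonessential amino acids, neuregulin (at 10 nM), and forskolin (at 2 µM). Fibroblasts were depleted with magnetic beads against the surface protein THY1, and cells of passages 3 to 5 with a stated purity over 80% were used. The sex of the mice was not given in the sources used here, nor whether each library stands for 1 animal, so the p-values measure the spread between these cultures.

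Basement membranes are thin sheets of matrix in which a laminin network and a type IV collagen network are laid over each other. Collagen chains wind into trimers before secretion: the α1 and α2 chains form the trimer found in nearly all basement membranes, whereas trimers with the α3, α4, α5, or α6 chain are known from few tissues, such as the kidney glomerulus, lung, and skin. Nidogens link laminin to type IV collagen, and perlecan and agrin are large heparan sulfate proteoglycans that bind laminin, growth factors, and, through their LG domains, dystroglycan. SCs lay down a basal lamina of these parts around each axon-SC unit, and agrin is also known for clustering acetylcholine receptors at the neuromuscular junction.

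The 6 collagen genes lie in pairs whose members are transcribed away from each other (GENCODE coordinates, GRCm38). *Col4a1* (chr8:11198423-11312826, minus strand) and *Col4a2* (chr8:11312805-11449287, plus strand) overlap by 22 bases at their starts. *Col4a4* (chr1:82448423-82586849, minus strand) and *Col4a3* (chr1:82586921-82722059, plus strand) leave 71 bases between their starts, and *Col4a6* (chrX:141165403-141474076, minus strand) and *Col4a5* (chrX:141475385-141689234, plus strand) leave 1308. The other 4 genes lie in no such pair: *Nid1* at chr13:13437551-13512269 (plus), *Nid2* at chr14:19751265-19811787 (plus), *Hspg2* at chr4:137468769-137570630 (plus), and *Agrn* at chr4:156165290-156197488 (minus). Promoter windows of RefSeq on GRCm38.p6, from 250 bases before to 50 bases after the annotated start, were found for 8 of the 10 genes. The windows of *Col4a1* (chr8:11312777-11313076, minus strand) and *Col4a2* (chr8:11312555-11312854, plus strand) are shown because this pair is transcribed from opposite strands of 1 short stretch of DNA, and the 78 bases that both windows hold are in capitals.
Col4a1: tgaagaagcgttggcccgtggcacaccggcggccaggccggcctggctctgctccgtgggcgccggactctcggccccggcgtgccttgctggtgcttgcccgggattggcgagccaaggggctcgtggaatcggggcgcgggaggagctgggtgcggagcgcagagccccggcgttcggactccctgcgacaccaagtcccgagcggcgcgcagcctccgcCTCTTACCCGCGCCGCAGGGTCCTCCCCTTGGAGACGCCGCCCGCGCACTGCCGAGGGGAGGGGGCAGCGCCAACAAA
Col4a2: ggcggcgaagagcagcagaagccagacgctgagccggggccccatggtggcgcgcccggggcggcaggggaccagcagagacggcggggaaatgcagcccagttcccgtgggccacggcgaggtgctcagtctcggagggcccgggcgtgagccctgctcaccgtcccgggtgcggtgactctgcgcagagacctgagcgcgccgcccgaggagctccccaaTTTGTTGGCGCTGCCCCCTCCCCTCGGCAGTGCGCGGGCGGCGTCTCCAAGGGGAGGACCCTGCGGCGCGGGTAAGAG
In the window of *Col4a4* (chr1:82586800-82587099, minus strand), the 71 bases that separate its start from that of *Col4a3* are in capitals.
Col4a4: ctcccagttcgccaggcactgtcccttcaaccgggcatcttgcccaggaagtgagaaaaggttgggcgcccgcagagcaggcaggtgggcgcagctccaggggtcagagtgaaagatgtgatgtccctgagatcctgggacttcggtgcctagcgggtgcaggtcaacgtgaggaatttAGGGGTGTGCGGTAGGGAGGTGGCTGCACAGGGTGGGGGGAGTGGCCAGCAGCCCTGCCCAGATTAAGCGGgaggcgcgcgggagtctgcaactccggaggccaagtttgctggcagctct
The windows of *Hspg2* (chr4:137468553-137468852, plus strand) and *Agrn* (chr4:156197439-156197738, minus strand, the first of its 2 windows) are shown because these genes ranked the 6 cultures in the same order. Capitals mark the GC box letters GGGCGG on either strand, with overlapping matches allowed.
Hspg2: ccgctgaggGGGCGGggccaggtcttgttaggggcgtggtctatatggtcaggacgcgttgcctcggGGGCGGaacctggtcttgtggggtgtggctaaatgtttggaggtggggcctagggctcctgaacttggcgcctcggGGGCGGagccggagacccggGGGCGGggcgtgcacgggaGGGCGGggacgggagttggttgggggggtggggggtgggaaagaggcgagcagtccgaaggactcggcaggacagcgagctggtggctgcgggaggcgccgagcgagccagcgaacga
Agrn: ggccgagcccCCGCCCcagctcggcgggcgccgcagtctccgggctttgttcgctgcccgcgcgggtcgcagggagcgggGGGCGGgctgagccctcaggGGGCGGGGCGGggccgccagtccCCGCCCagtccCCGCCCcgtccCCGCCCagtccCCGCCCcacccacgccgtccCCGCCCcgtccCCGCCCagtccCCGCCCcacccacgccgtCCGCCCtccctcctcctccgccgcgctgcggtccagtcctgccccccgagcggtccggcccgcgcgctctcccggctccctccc
The GC box letters occurred 12 times in the *Agrn* window and 5 times in that of *Hspg2*, 3 times in that of *Col4a2*, and once each in those of *Col4a1*, *Col4a5*, *Col4a6*, and *Nid1*. They were not found in the *Col4a4* window, and 35.7% of the 32851 windows of all genes held them at least once. The letters CCAAT, on either strand, were held by the windows of *Col4a1*, *Col4a2*, *Col4a5*, and *Nid1*, and by 37.4% of all windows. These matches describe the letters only.

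Several facts of the libraries bear on the values below. Total counts lay between 59252048 and 77280964 per library, so that 3 counts, the smallest number taken as detected, equal between 0.0388 and 0.0506 CPM (counts relative to library size). This floor allows for counting error alone. The level of *Plxnb1* itself was 61.8, 45.4, and 96.4 CPM across the WT cultures, against 13.1, 16.6, and 18.6 CPM across those of the mutant (log2 fold change -2.08, SE 0.25, adjusted p = 0.0449 in edgeR), in the direction of the labels. Its log2 fold change was -2.30 to -1.74 over the alternatives, though the adjusted p passed in only 7 of 14. The summed level of 14 SC markers was 3900 to 4552 CPM in WT and 4579 to 5179 CPM in *Plxnb1-/-* cultures (13 of 14 higher), and that of 8 fibroblast markers was 11310 to 14544 and 10276 to 10753 CPM (7 of 8 lower). The fibroblast list holds the fibrillar collagens *Col1a1* and *Col3a1*. *Col3a1* reached 358789 counts in a library, against 5329 for *Pdgfra* of the same list, so the sum is weighted toward collagen genes. Of the defining SC markers, *Sox10* lay at 432 to 580 CPM and *S100b* at 7.09 to 8.22 CPM. WT replicate 2 had the lowest SC sum and the highest fibroblast sum. The summed level of 8 mural cell markers was 1883 to 2508 CPM in WT and 1709 to 1834 CPM in *Plxnb1-/-* cultures although 5 of the 8 were above 0 (median log2 fold change 0.08), the abundant *Acta2* being among the 3 below. The endothelial sum was 66.4 to 88.5 CPM, with *Cldn5* at 0.0256 to 0.376 CPM and *Pecam1* at 1.08 to 3.72 CPM. Fibroblasts, mural cells, and endothelial cells also make basement membrane proteins, and fewer cells of a type and less RNA per cell cannot be told apart in bulk samples. *Xist* lay at 218 to 260 CPM in 5 cultures and at 11.6 CPM in *Plxnb1-/-* replicate 3. The Y-linked *Ddx3y* was at 0 in the 3 WT cultures, at 2.68 and 3.57 CPM in *Plxnb1-/-* replicates 1 and 2, and at 77.6 CPM in replicate 3, so sex-linked transcripts differed between the genotypes and values without that culture are given where they matter.

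The SC cultures expressed the 2 common collagen chains at a level reached by few genes, and the rarer chains hardly at all. Per kilobase of exon, the mean level over the 6 cultures was 535 ± 28.0 CPM for *Col4a1* and 398 ± 22.8 CPM for *Col4a2* (SD, n = 6), which placed them 26th and 45th among 22280 tested genes with a length. *Nid1* followed at 345 ± 11.3 CPM per kb, *Hspg2* at 134 ± 21.1, *Agrn* at 93.0 ± 9.93, and *Nid2* at 43.4 ± 3.73. These 6 genes alone held nearly all reads of the group, which took 1.14% to 1.28% of the counts of a library.

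Below them, the level dropped by 17.3-fold to *Col4a5* at 2.50 ± 0.180 CPM per kb, near the middle of the tested genes (rank 11029). *Col4a4* lay at 0.461 ± 0.0907, *Col4a6* at 0.0224 ± 0.00838, and *Col4a3* at 0.00822 ± 0.00108 CPM per kb. *Col4a3* rested on 4 to 7 reads per library and *Col4a6* on 4 to 19, against a floor of 3. Together *Col4a1* and *Col4a2* made up 99.64% to 99.72% of the CPM of the 6 chains in a culture.

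Per kilobase of exon, the order of the 10 genes was the same in each of the 6 cultures, in both genotypes. Neighbours in that order were separated in their ranges over the cultures, except *Hspg2* (106 to 168 CPM per kb) and *Agrn* (78.9 to 106.9 CPM per kb), and *Col4a6* and *Col4a3*, which overlapped. Reads were placed with Bowtie2, which cannot align a read across an intron, and the median exon of a collagen chain had 90 to 112.5 bases, against 139 to 196.5 in the other 4 genes. Reads over the junctions of short exons could therefore be lost, and levels of the chains compared with the other genes carry that limit. With exons of at least 100 bases as the length, or with the longest transcript, the order of the means over the 6 cultures was the same. The longest transcript brought *Col4a2* (408 CPM per kb) and *Nid1* (393) close together. With those transcripts of 6450 and 6091 bases, *Nid1* lay above *Col4a2* in *Plxnb1-/-* replicates 2 and 3 and below it in the other cultures. The shared order of the 10 genes in each culture thus depended on the length used.

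**Figure D1:**
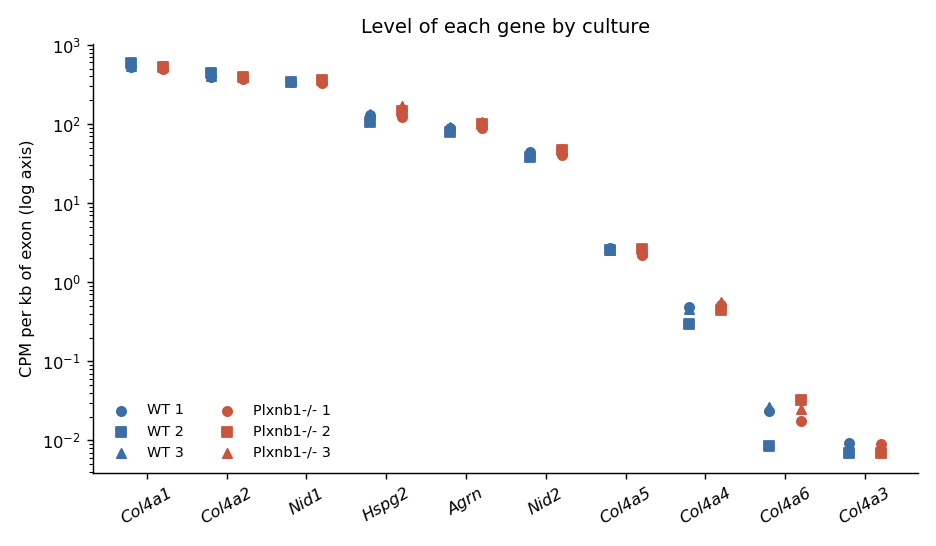
Level of each of the 10 genes in CPM per kilobase of exon (log axis), ordered from the highest to the lowest mean. Each point is 1 culture, blue for WT and red for *Plxnb1-/-*, with the shape giving the replicate. The genes span from 535 CPM per kb for *Col4a1* to 0.00822 for *Col4a3*, and the genotypes overlap for each gene.

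None of the 10 genes was called between the genotypes. Calls required the adjusted p to be under 0.05 and the log2 fold change to exceed 0.25 in size. In edgeR, 0.0358% of all tested genes passed (8 of 22318), 0.00448% as higher and 0.0314% as lower in *Plxnb1-/-* cultures. In DESeq2, 1.5% passed (335), and 0 of the 10 were among them. At an unadjusted p below 0.05, edgeR had 0 of the 10 against 13.7% of all tested genes, and DESeq2 had 2 (*Hspg2* and *Agrn*) against 11.9%. For none of the 10 were the genotypes separate in CPM, against 19.7% of all tested genes. The fitted log2 fold change was above 0 for 6 genes and below 0 for 4 (51.5% and 48.5% of all tested genes), with a median of 0.07 over the 10 and 0.00 over all tested genes.

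*Col4a1*, the chain that is present in 2 copies in the common trimer, had the highest level of the 10 in both genotypes. Its level was 3965, 4347, and 4027 CPM in the WT cultures (replicates 1 to 3, an order kept for all values below), against 3697, 3932, and 4002 CPM in those of the mutant. The WT mean was 4113 ± 205 CPM and the *Plxnb1-/-* mean 3877 ± 160 CPM (SD, n = 3). WT replicate 2 stood highest and *Plxnb1-/-* replicate 1 lowest, and the genotypes overlapped in the other cultures. The log2 fold change was -0.09 (SE 0.05, 95% interval -0.20 to 0.03, adjusted p = 0.508 in edgeR), so that a mutant level of 0.868 to 1.02 times the WT level lay within the interval.

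Its partner *Col4a2* held 2572, 2901, and 2672 CPM in WT and 2447, 2586, and 2627 CPM in *Plxnb1-/-* cultures. The highest and the lowest culture were the same as for *Col4a1*, and the genotypes overlapped. Its log2 fold change was -0.09 (SE 0.06, 95% interval -0.21 to 0.04, adjusted p = 0.512 in edgeR). Without WT replicate 2, the culture with the most fibroblast markers, the log2 fold changes of *Col4a1* and *Col4a2* were -0.04 and -0.04, and without *Plxnb1-/-* replicate 3 they were -0.11 and -0.11. The part of the fibroblast and mural markers in these values was not tested.

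*Col4a5*, which joins the α3 and α4 chains or the α6 chain in trimers, held 18.0, 17.1, and 17.3 CPM in WT and 14.7, 17.5, and 16.1 CPM in *Plxnb1-/-* cultures. *Plxnb1-/-* replicates 1 and 3 lay below the WT cultures, and replicate 2 lay among them. This gave a log2 fold change of -0.12 (SE 0.07, 95% interval -0.28 to 0.04, adjusted p = 0.491 in edgeR). *Col4a5* lies on the X chromosome, and its log2 fold change was -0.12 also without *Plxnb1-/-* replicate 3, the culture low in *Xist*. It was -0.06 without *Plxnb1-/-* replicate 1 and -0.18 without *Plxnb1-/-* replicate 2.

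*Col4a6*, the X-linked neighbour of *Col4a5*, was counted with 12, 4, and 15 reads in WT and 11, 19, and 14 reads in *Plxnb1-/-* cultures, and its log2 fold change of 0.34 had a 95% interval from -0.71 to 1.38. Without WT replicate 2, which had the 4 reads, it was 0.01, without WT replicate 3 it was 0.63, and without *Plxnb1-/-* replicate 3 it was 0.33. *Col4a3* was counted with 6, 4, and 6 reads in WT and 7, 5, and 6 reads in *Plxnb1-/-* cultures (log2 fold change -0.01, 95% interval -1.04 to 1.01), so that a 2.01-fold difference was not excluded by its interval. No difference was detected for either chain, within these wide intervals. Part of the *Col4a3* exons, 563 bases, also lies under the opposite-strand transcript *C430014B12Rik*, and the strand setting of the counting was not stated, so its few reads cannot be assigned with certainty.

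*Col4a4*, the partner of *Col4a3* across the 71 bases shown above, was better covered. It held 5.17, 3.14, and 4.89 CPM in WT and 5.44, 4.73, and 5.97 CPM in *Plxnb1-/-* cultures, on 184 to 426 reads. The low value of WT replicate 2 set it apart from the other 5 cultures, and *Plxnb1-/-* replicate 2 lay below WT replicates 1 and 3. The difference was 0.29 in log2 (SE 0.18, 95% interval -0.11 to 0.69, adjusted p = 0.507 in edgeR), and 0.10 without WT replicate 2.

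The nidogens differed in level by more than they differed between genotypes. *Nid1*, the main nidogen of most tissues, held 2336, 2367, and 2431 CPM in WT and 2286, 2469, and 2484 CPM in *Plxnb1-/-* cultures, the narrowest spread of the 10 genes relative to its mean. Its log2 fold change was 0.02 (SE 0.05, 95% interval -0.09 to 0.13, adjusted p = 0.884 in edgeR), or 0.942 to 1.09 times the WT level, and it was -0.000257 without *Plxnb1-/-* replicate 3 and 0.06 without *Plxnb1-/-* replicate 1. The lowest and the 2 highest values were all *Plxnb1-/-* cultures, with the WT cultures between them.

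*Nid2*, its paralog, held 226, 196, and 225 CPM in WT and 210.2, 240.3, and 249 CPM in *Plxnb1-/-* cultures. WT replicate 2 was lowest, *Plxnb1-/-* replicate 1 next, and the other *Plxnb1-/-* cultures were highest, so the genotypes overlapped. Its log2 fold change was 0.11 (SE 0.08, 95% interval -0.06 to 0.28, adjusted p = 0.538 in edgeR), 0.05 without WT replicate 2, 0.06 without *Plxnb1-/-* replicate 3, and 0.18 without *Plxnb1-/-* replicate 1. The *Nid2* exons share 437 bases with *Rtraf* on the opposite strand, and reads there cannot be told apart without the strand setting.

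The proteoglycans had the differences with the lowest p-values of the 10 genes, and neither passed the adjusted threshold. *Hspg2*, the perlecan core protein, held 1852, 1511, and 1899 CPM in WT and 1777, 2079, and 2409 CPM in *Plxnb1-/-* cultures, with means of 1754 ± 212 and 2089 ± 316 CPM (SD, n = 3). WT replicate 2 was the lowest and *Plxnb1-/-* replicates 2 and 3 the highest cultures, while *Plxnb1-/-* replicate 1 lay below WT replicates 1 and 3. The log2 fold change was 0.25 (SE 0.12, 95% interval -0.01 to 0.51), with an unadjusted p of 0.0576 and an adjusted p of 0.377 in edgeR. DESeq2 gave an unadjusted p of 0.0246 and an adjusted p of 0.221 for *Hspg2*.

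*Agrn*, the agrin core protein, ranked the 6 cultures exactly as *Hspg2* did. It held 834, 733, and 861 CPM in WT and 820, 941, and 992 CPM in *Plxnb1-/-* cultures, with means of 809 ± 67.5 and 918 ± 88.5 CPM (SD, n = 3). The log2 fold change was 0.18 (SE 0.08, 95% interval -0.002 to 0.37), with an unadjusted p of 0.0521 and an adjusted p of 0.368 in edgeR, and of 0.0346 and 0.256 in DESeq2. Both differences rested in part on single cultures: without WT replicate 2 the log2 fold change was 0.16 for *Hspg2* and 0.12 for *Agrn*, without *Plxnb1-/-* replicate 3 it was 0.14 and 0.12, and without *Plxnb1-/-* replicate 1 it was 0.35 and 0.25. WT replicate 2 had the lowest SC marker sum (3900 CPM) and *Plxnb1-/-* replicates 2 and 3 the highest (5111 and 5179 CPM). The SC marker sum of *Plxnb1-/-* replicate 1 (4579 CPM) was close to those of WT replicates 1 and 3 (4523 and 4552 CPM). That mutant culture lay below WT replicates 1 and 3 for both genes. The part of the cell composition in the result was not tested.

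**Figure D2:**
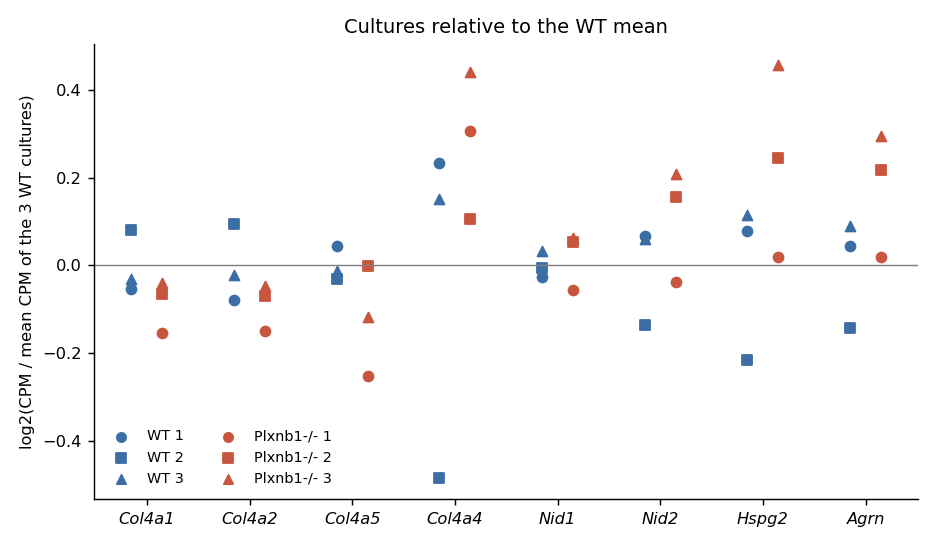
Level of 8 of the 10 genes in each culture as log2 of its CPM over the mean CPM of the 3 WT cultures. Points are single cultures, blue for WT and red for *Plxnb1-/-*, with the shape giving the replicate. WT replicate 2 is the highest point for *Col4a1* and *Col4a2* and the lowest for *Col4a4*, *Nid2*, *Hspg2*, and *Agrn*. *Col4a3* and *Col4a6* are left out because they rest on 4 to 19 reads.

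WT replicate 2 thus stood at opposite ends for the collagen pair and for the proteoglycans. It was the highest of the 6 cultures for *Col4a1* and *Col4a2* and the lowest for *Hspg2*, *Agrn*, *Nid2*, and *Col4a4*. With that culture left out, 6 of the 10 genes were above 0 with a median log2 fold change of 0.01, and without *Plxnb1-/-* replicate 3, 5 were above 0 with a median of 0.03. None of the 10 was called with any library left out.

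**Figure D3:**
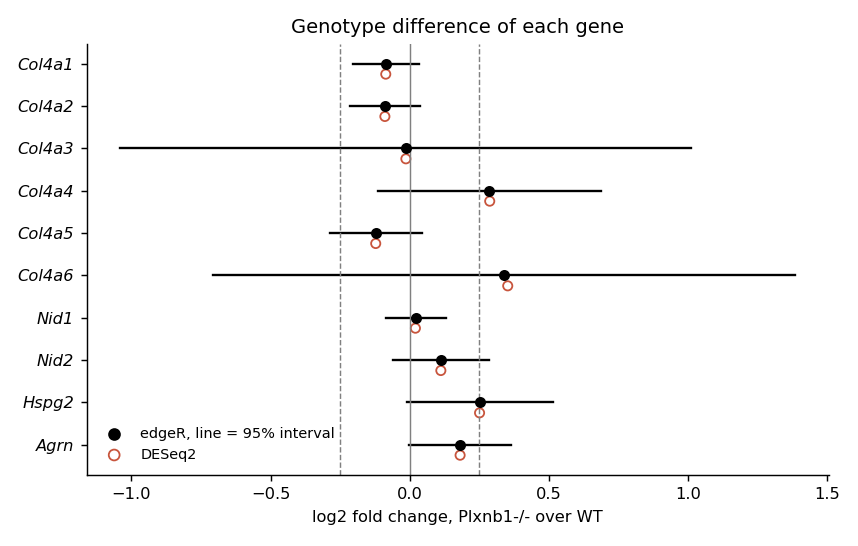
Log2 fold change of each gene, *Plxnb1-/-* over WT, from edgeR (filled points, with the 95% interval as a line) and DESeq2 (open points). Dashed lines mark an absolute log2 fold change of 0.25, the size a call required. Each interval includes 0, and the widest are those of *Col4a3* and *Col4a6*.

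Ratios within a gene pair compare the partners inside 1 culture, so that a factor shared by both drops out. The ratio of *Col4a2* to *Col4a1* per kilobase of exon was 0.731, 0.752, and 0.748 in WT and 0.747, 0.742, and 0.740 in *Plxnb1-/-* cultures. The means, 0.744 ± 0.0111 and 0.743 ± 0.00329 (SD, n = 3), differed by -0.00229 on the log2 scale (exact two-sided permutation test, p = 0.9). The ratio hardly moved among the cultures although the pair's own levels did.

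The ratio of *Nid2* to *Nid1* was 0.130, 0.111, and 0.124 in WT and 0.123, 0.131, and 0.135 in *Plxnb1-/-* cultures, overlapping between genotypes (log2 difference 0.09, exact permutation p = 0.3). The ratio of *Col4a4* to *Col4a3* was 51.8, 43.2, and 54.2 in WT and 57.2, 64.4, and 64.8 in *Plxnb1-/-* cultures, which did not overlap. Its log2 difference was 0.33 and its exact permutation p was 0.1, the smallest that 3 against 3 cultures can give, and 0.4 after adjustment over the 4 ratios. The denominator of that ratio was the 4 to 7 reads of *Col4a3*. The ratio of *Col4a6* to *Col4a5* was 0.00336 to 0.0103 in WT and 0.00807 to 0.0126 in *Plxnb1-/-* cultures (exact permutation p = 0.4). No ratio passed the adjusted threshold, which this design could not reach.

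**Figure D4:**
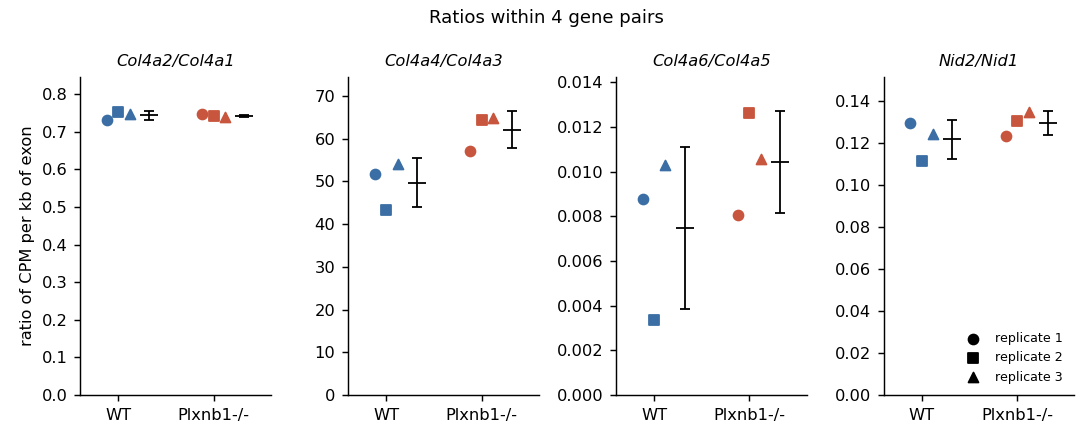
Ratio of CPM per kilobase of exon within 4 gene pairs, by genotype. Points are single cultures, shapes give the replicate, and black marks give the mean with the SD (n = 3). Each vertical axis starts at 0 and has its own range. The *Col4a2*/*Col4a1* ratio lies between 0.731 and 0.752 in the 6 cultures, and only the *Col4a4*/*Col4a3* ratio separates the genotypes.

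Laminins, the other network of the basement membrane, were counted with the same tests. Of 11 laminin genes, 7 were above 0 and 4 below, with a median log2 fold change of 0.11, and 0 were called by edgeR or DESeq2 (4 at an unadjusted p below 0.05 in edgeR, against 13.7% of all tested genes, and 3 with separate genotypes, against 19.7%). *Lama2*, the α2 chain of the laminin of SC basal laminae, held 331, 246, and 319 CPM in WT and 339, 364, and 441 CPM in *Plxnb1-/-* cultures (log2 fold change 0.35, adjusted p = 0.296 in edgeR, and 0.23 without WT replicate 2). *Lamb2*, the β2 chain, stood at a log2 fold change of 0.14 (adjusted p = 0.305 in edgeR). *Lamb3*, a chain of epithelial laminin, was near the floor in each culture, at 0 to 0.226 CPM.

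Other components of the basement membrane were divided, with 10 of 17 above 0 (9 with upper-quartile factors) and a median log2 fold change of 0.02. Without *Plxnb1-/-* replicate 2, 8 were above 0 and 9 below, with a median of -0.01. edgeR called 0 of them (6 at an unadjusted p below 0.05, against 13.7% of all tested genes), and DESeq2 called 1 (against 1.5%), *Vwa1*, named here after its value was seen (log2 fold change 0.33, adjusted p = 0.0309 in DESeq2). *Vwa1* encodes WARP, a protein that binds perlecan, and held 214, 219, and 236 CPM in WT and 235, 306, and 301 CPM in *Plxnb1-/-* cultures, which overlapped. The *Vwa1* exons share 760 bases (21.0% of their length) with *Gm26840* and 153 with *Atad3aos*, both on the opposite strand. Reads there cannot be told apart without the strand setting. *Sparc*, a collagen-binding glycoprotein, held 3740 to 4119 CPM in WT and 3522 to 3737 CPM in *Plxnb1-/-* cultures (log2 fold change -0.09, adjusted p = 0.482 in edgeR, and -0.04 without WT replicate 2). The log2 fold change of *Smoc1*, of the same family, was -0.33 (adjusted p = 0.284 in edgeR). *Frem1* and *Frem2*, which anchor epithelia to the basement membrane, had log2 fold changes of 0.29 and 0.56 (adjusted p = 0.296 and 0.338 in edgeR), and 0.18 and 0.33 without WT replicate 2.

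The enzymes and chaperones that fold, modify, export, and crosslink type IV collagen lay mostly below 0. Of 20 genes, 17 were below 0 and 3 above, the median log2 fold change was -0.15, and the genotypes were separate for 11 (19.7% of all tested genes). At an unadjusted p below 0.05, edgeR had 13 of the 20, each below 0 (against 13.7% of all tested genes), but it called 0 after adjustment, and DESeq2 called 2 (against 1.5%), *Loxl2* and *Qsox1*. The 17 below 0 stayed 17 without WT replicate 2, with a median of -0.09. Most of these proteins serve fibrillar collagens as well, and the list's summed level moved with the fibroblast markers, which include *Col1a1* and *Col3a1*. The list's sum was highest in WT replicate 2 (8559 CPM against 7536 and 7715 CPM in the other WT cultures and 6901 to 7228 CPM in *Plxnb1-/-* cultures). The part of the fibroblast markers in that sum was not tested.

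*Serpinh1*, the collagen chaperone HSP47, held 1547, 1808, and 1561 CPM in WT and 1420, 1467, and 1434 CPM in *Plxnb1-/-* cultures (log2 fold change -0.19, adjusted p = 0.294 in edgeR, and -0.11 without WT replicate 2). *Pxdn*, the peroxidasin that forms the sulfilimine crosslinks between type IV collagen trimers, held 757, 835, and 827 CPM in WT and 719, 766, and 678 CPM in *Plxnb1-/-* cultures (log2 fold change -0.16, adjusted p = 0.307 in edgeR). The *Plxnb1-/-* cultures were the lower ones for *Serpinh1*, with no overlap, whereas *Plxnb1-/-* replicate 2 lay just above WT replicate 1 for *Pxdn*. *Loxl2*, a lysyl oxidase that acts on the 7S domain of type IV collagen, held 652, 870, and 710 CPM in WT and 614, 595, and 526 CPM in *Plxnb1-/-* cultures (log2 fold change -0.36, adjusted p = 0.273 in edgeR and 0.026 in DESeq2). For *Qsox1*, a sulfhydryl oxidase, it was -0.27 (adjusted p = 0.273 in edgeR and 0.0235 in DESeq2). The log2 fold change of *Loxl2* was -0.23 without WT replicate 2.

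The list of receptors for type IV collagen, nidogen, perlecan, and agrin lay mostly above 0. It also held integrin chains known from laminin receptors (*Itga6*, *Itga7*, and *Itgb4*), so its counts do not stand for those ligands alone. Of 15 genes, 12 were above 0 and 3 below, with a median log2 fold change of 0.18 (0.08 without WT replicate 2), and the genotypes were separate for 6 (against 19.7% of all tested genes). edgeR called 0 of them (7 at an unadjusted p below 0.05, against 13.7%) and DESeq2 called 1 (against 1.5%), *Itgb4*, the β4 integrin, which held 108, 88.5, and 104 CPM in WT and 118, 130, and 153 CPM in *Plxnb1-/-* cultures (log2 fold change 0.42, adjusted p = 0.266 in edgeR and 0.00706 in DESeq2). Its *Plxnb1-/-* values all lay above the WT values.

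*Dag1*, dystroglycan, which binds perlecan and agrin, held 1678, 1382, and 1650 CPM in WT and 1661, 1858, and 1961 CPM in *Plxnb1-/-* cultures (log2 fold change 0.22, adjusted p = 0.324 in edgeR, and 0.14 without WT replicate 2). WT replicate 2 was again the lowest culture and *Plxnb1-/-* replicates 2 and 3 the highest. *Adgrg6*, a receptor for type IV collagen that SCs need for myelination, stood at a log2 fold change of 0.17 (adjusted p = 0.376 in edgeR), and 0.08 without WT replicate 2. *Itgb1*, the β1 integrin shared by many matrix receptors, had a log2 fold change of -0.03 with a 95% interval from -0.12 to 0.07, and *Itgb3* one of -0.10 (adjusted p = 0.348 in edgeR). *Musk*, the kinase of the agrin receptor complex in muscle, was at 0.632 to 1.21 CPM (log2 fold change 0.48, adjusted p = 0.370 in edgeR, and 0.28 without *Plxnb1-/-* replicate 1). The summed level of the 15 receptors was 5710 to 6513 CPM in WT and 6517 to 7013 CPM in *Plxnb1-/-* cultures, lowest in WT replicate 2 as the SC markers were, and the part of the SC markers in it was not tested.

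The enzymes that make and edit heparan sulfate, the chains borne by perlecan and agrin, were divided: of 23 tested among 25 listed, 11 were above 0 and 12 below, with a median of -0.02. edgeR called 0 (5 at an unadjusted p below 0.05, against 13.7% of all tested genes) and DESeq2 called 1 (against 1.5%), *Ndst3*, an N-deacetylase/N-sulfotransferase at 21.4 to 28.9 CPM in WT and 32.1 to 35.9 CPM in *Plxnb1-/-* cultures (log2 fold change 0.41, adjusted p = 0.273 in edgeR and 0.0128 in DESeq2). *Hs6st1*, a 6-O-sulfotransferase, held 94.2, 165, and 114 CPM in WT and 88.9, 89.2, and 80.2 CPM in *Plxnb1-/-* cultures. Its log2 fold change was -0.53 (adjusted p = 0.290 in edgeR), and -0.27 without WT replicate 2. The epimerase *Glce* stood at a log2 fold change of -0.35 (adjusted p = 0.293 in edgeR, and -0.18 without WT replicate 2) and the 2-O-sulfotransferase *Hs2st1* at one of 0.09 (adjusted p = 0.428 in edgeR).

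Among 11 proteases that act on the basement membrane, 4 were above 0 and 7 below, with a median log2 fold change of -0.09, and the genotypes were separate for 6 (against 19.7% of all tested genes). edgeR called 0 of them (5 at an unadjusted p below 0.05, against 13.7%) and DESeq2 called 2 (against 1.5%), *Mmp9* and *Tll1*. *Tll1*, a tolloid protease of the BMP1 family, which cleaves the perlecan C-terminus, held 18.8, 17.6, and 17.1 CPM in WT and 13.3, 11.3, and 11.8 CPM in *Plxnb1-/-* cultures (log2 fold change -0.56, adjusted p = 0.103 in edgeR and 1.3e-06 in DESeq2). Its genotypes were far apart, and the log2 fold change lay between -0.63 and -0.51 with each culture left out. *Mmp9*, a gelatinase that degrades type IV collagen, held 5.42, 10.5, and 6.98 CPM in WT and 3.62, 5.28, and 3.61 CPM in *Plxnb1-/-* cultures (log2 fold change -0.87, adjusted p = 0.273 in edgeR and 0.00955 in DESeq2). WT replicate 2 was its highest culture, and without it the log2 fold change was -0.57. *Mmp3* and *Adamts1*, both able to cleave nidogen, had log2 fold changes of 0.32 and 0.13 (adjusted p = 0.293 and 0.443 in edgeR). They were 0.20 for *Mmp3* without WT replicate 3 and 0.05 for *Adamts1* without WT replicate 2.

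**Figure D5:**
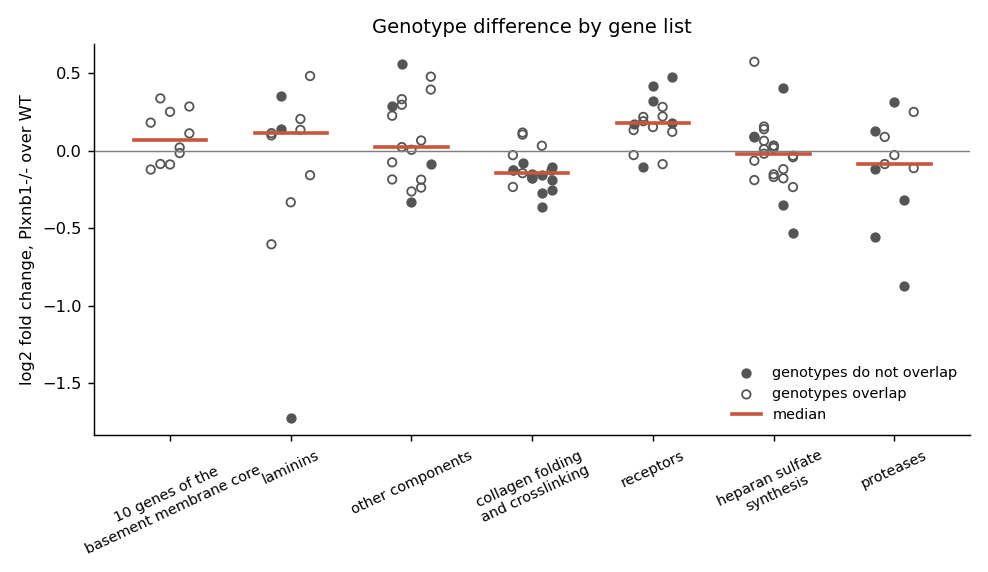
Log2 fold change, *Plxnb1-/-* over WT, of the 10 genes and of the tested genes of 6 lists around them. Each point is 1 gene, filled where the CPM of the genotypes does not overlap, and the red line is the median of the list. The medians run from -0.15 for collagen folding and crosslinking to 0.18 for the receptors, and none of the 10 genes is filled.

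Outside the 10 genes, those whose log2 CPM followed *Col4a1* most closely over the 6 cultures, among 10152 genes of at least 10 CPM, were *Gm4332* (Pearson's r = 0.993), *Slirp*, *Taf10*, *Rpl41*, and *Rps27* (r between 0.981 and 0.983). Its partner *Col4a2* had an r of 0.986 with *Col4a1*, above that of each of these but *Gm4332*. Each value rests on the same 6 libraries, and with 10152 genes ranked on 6 points they carry no test.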

How the data were processed

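RNA-seq libraries of 3 WT and 3 *Plxnb1-/-* SC cultures were compared, grouped by the genotype in the labels. The authors trimmed the reads with Trim Galore 0.6.5, aligned them to mm10 with Bowtie2 2.4.1, removed duplicates with SAMtools 1.10, and counted reads on GENCODE vM25 exons with featureCounts. The deposited count table is not normalized. The authors also deposited FPKM values, in which the length matched the gene span within 1% for 100% of genes compared and the exon length for 8.01% to 8.76%, so they were used only as an alternative and not to compare genes. Duplicates were removed without molecular identifiers, and *Col4a1* held 34.0 to 38.8 counts per exon base, a density at which true fragments can be lost as duplicates; that loss was not tested.

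Counts were tested with edgeR 4.0.16 (TMM, quasi-likelihood, genotype only, Benjamini-Hochberg adjustment over all tested genes) under R 4.3.3, with DESeq2 1.42.0 beside it. Of 55401 identifiers, 55141 matched GENCODE vM21, an older release on the same build, from which exon lengths were taken. CPM used TMM library sizes. The 95% intervals came from the log2 fold change and its standard error. Ratios were compared with an exact permutation test over 20 arrangements (SciPy 1.17.1). The tests were tried on simulated counts for 21746 genes. Of 100 genes moved by 1 on the log2 scale, edgeR and DESeq2 each found 97, and of 100 moved by 0.5 they found 70 and 75, with 18 and 28 false calls. The simulated counts were independent draws from the fitted dispersions, and only genes above 1 CPM were moved. There the tools nearly matched, whereas in the data edgeR called 8 genes and DESeq2 335. These rates therefore do not give the power of either tool in the data.

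The genes and lists were chosen with earlier results of these data known. Named are the 10 genes, *Plxnb1*, up to 2 genes per list and direction with the largest fold change among those with separate genotypes, every list gene called by edgeR (there were 0), *Pxdn*, *Serpinh1*, *Dag1*, *Itgb1*, and *Adgrg6*, and the 5 genes most like *Col4a1*. DESeq2-called list genes outside this rule were added after their values were seen. Alternatives were other normalizations, filters, dispersion, DESeq2, limma 3.58.1 on log2(FPKM + 0.1), other lengths, a replicate block, and leaving out each library. Same-numbered cultures did not deviate together (correlations -0.02, 0.01, and 0.07), so the numbers were not taken as pairs. Protein sequences were not used here.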

Additional observations from a re-analysis of the deposited data

How the results depend on the processing

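Over 14 alternatives, the lowest adjusted p of any of the 10 genes was 0.203, for *Hspg2* with no filter on low counts, and 134 of 139 fold changes kept their direction. The exceptions lay near 0: *Col4a3* ran from -0.118 to 0.0903 with single libraries left out and was 2.9e-06 in limma on log2(FPKM + 0.1), and *Nid1* ran from -0.000257 to 0.056. The added 0.1 is large beside the FPKM of the weak chains, which were divided by gene span. It pulls their limma values toward 0 (0.00216 for *Col4a6* and 0.0797 for *Col4a4*), so for these chains limma is no check of direction. *Col4a3* could not be fitted with at least 10 counts in at least 3 libraries. The number of genes called over all tested genes depended on the method: 8 in edgeR, 335 in DESeq2, 296 with no filter, 5 with the replicate block, 3 in limma on log2(FPKM + 0.1), and 4 to 25 with single libraries left out, the highest without WT replicate 2. The replicate block changed no call among the 10 genes. The *Plxnb1* call was lost in limma on log2(FPKM + 0.1) (adjusted p = 0.413), with robust dispersion (0.220) and with 10 or more counts in 3 libraries (0.0648) in edgeR, and in edgeR without WT replicate 1 (0.0886) or *Plxnb1-/-* replicates 1, 2, or 3 (0.255, 0.268, and 0.125). Calls in the lists were 0 in edgeR, and both DESeq2 and edgeR without the filter called 1 of the other components, 2 of folding and crosslinking, 1 of the receptors, 1 of heparan sulfate synthesis, and 2 of the proteases. Without the filter, 4 Y-linked genes were called. With only exons of at least 100 bases in the length, the levels were 770.02 CPM per kb for *Col4a1*, 516 for *Col4a2*, 3.68 for *Col4a5*, and 0.0106 for *Col4a3*. This shorter length raises the values, since reads of shorter exons were still counted. Reads lost at junctions or as duplicates are not restored by it, so the values are not bounds. With the longest transcript, the levels were 604 for *Col4a1*, 408 for *Col4a2*, 393 for *Nid1*, and 0.00958 for *Col4a3*. The log2 difference of the *Col4a2*/*Col4a1* ratio ran from -0.0146 to 0.00578 with single libraries left out. The cause of these changes was not tested. Depth limits *Col4a3* and *Col4a6*, at 4 to 19 reads, while for the other 8 genes the spread of 3 cultures a genotype sets the intervals.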

Other observations

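Marker lists of further cell types gave these sums. The summed level of 5 perineurial markers was 218 to 222 CPM in WT and 234 to 266 CPM in *Plxnb1-/-* cultures, with *Lypd2* at 0 in each culture. Of the 4 tested, 2 were above 0 and 2 below (median log2 fold change 0.09). *Itgb4*, also a receptor counted above, was 1 of the 5 and held 88.5 to 153 CPM of the sum. The summed level of 6 macrophage markers was 32.5 to 36.6 CPM in WT and 37.2 to 43.3 CPM in *Plxnb1-/-* cultures, that of 6 neuronal markers 147 to 161 and 163 to 185 CPM, and that of 4 satellite glia markers 768 to 889 and 913 to 941 CPM. The laminin genes had a summed level of 3101 to 3546 CPM in WT and 3454 to 4028 CPM in *Plxnb1-/-* cultures, with WT replicate 2 lowest, as for *Hspg2* and *Agrn*.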
